A study of Mus musculus with 2 samples.

Results

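The genes described here are 10 members of the mouse MHC class I pathway, chosen by symbol from the 32286 features of the count tables, in which all 10 were found. They are the heavy chains H2-K1, H2-D1, H2-Q4 and H2-T23, the light chain B2m, the peptide transporter subunits Tap1 and Tap2, the immunoproteasome subunits Psmb8 and Psmb9, and the transcriptional coactivator Nlrc5. They were followed in satellite cells, the muscle stem cells, sorted by GFP into PAX3+ (GFP+) and PAX3- (GFP-) cells. Both came from the biceps and the recto femoris, taken 5 days after injury. The muscles came from Pax3GFP/+ animals, which carry GFP at 1 copy of the Pax3 gene, while the genotype field of both samples reads wild-type. For each fraction 20000 cells were loaded for droplet single-cell RNA-seq with a 3′ kit that counts unique molecular identifiers (UMIs). There was 1 library of each fraction, so no difference between fractions or cell classes has a replicate, and no test was made. Age, sex, strain, the kind of injury and the number of animals pooled are not given.

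Class I molecules display peptides from inside the cell to CD8 T cells and to receptors of natural killer cells. The peptides are cut by the proteasome, pumped into the endoplasmic reticulum by the TAP1-TAP2 transporter and bound by a heavy chain paired with B2m. Interferons raise this machinery in many cell types through IRF factors, and NLRC5 acts at class I promoters. Resting muscle cells are known for low class I levels, which increase in inflamed muscle.

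Barcodes were kept at 1000 or more UMIs and 500 or more genes, with mitochondrial UMIs no higher than 10%. There were 604 in the GFP+ library and 2683 in the GFP- library, with a median of 18534.5 and 14663 UMIs, and 2 of these barcodes occurred in both libraries. Cells with at least 10 UMIs of Lyz2, a lysozyme of macrophages and other myeloid cells, made up 71 (11.8%) of the GFP+ and 51 (1.90%) of the GFP- cells and are called Lyz2-positive. A further 14 GFP+ and 143 GFP- cells carried at least 10 UMIs of marker lists of other lineages or 20 of the myeloid list, 110 of the GFP- ones mural. Among all other cells, interferon-high cells had at least 10 UMIs per 10000 of 18 antiviral interferon-stimulated genes that include no member (25 GFP+ and 120 GFP- cells). Erfe-high cells had at least 2 UMIs, and at least 2 per 10000, of Erfe, the hormone erythroferrone (75 and 35 cells). Myog-positive cells had at least 3 UMIs of Myog, the transcription factor of committed myocytes (85 and 489 cells). The remaining 340 GFP+ and 1860 GFP- cells belonged to none of these. In them the 10 myogenic markers summed to 3354 CPM in the GFP+ library and 2845 in the GFP- library, against 17.3 and 9.96 for the 10 myeloid markers, and Pax3 itself stood at 22.9 and 5.53 CPM.

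Levels are counts-per-million (CPM), the summed UMIs of a gene scaled to the summed UMIs of the same cells, so a level compares 1 gene between groups of cells and not 1 gene with another. A ratio is called higher when it is at least 1.5 with its exact 95% interval above 1, and lower in the mirrored case. Genes count as tested at a pooled level of at least 10 CPM with at least 5 UMIs expected in the smaller group. The intervals cover counting error only, since cells are not replicates.

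On mm10, 8 members lie on chromosome 17: H2-K1 at chr17:33996017-34000347, Psmb9 at chr17:34181987-34187764, Tap1 at chr17:34187553-34197225, Psmb8 at chr17:34197721-34201454, Tap2 at chr17:34203527-34216321, H2-D1 at chr17:35262730-35267499, H2-Q4 at chr17:35379617-35385290 and H2-T23 at chr17:36029773-36032855 (GENCODE M21). B2m lies at chr2:122147686-122153083 and Nlrc5 at chr8:94434356-94527272. The promoters of H2-K1, H2-D1 and H2-Q4 in RefSeq (GRCm38.p6) share a short arrangement that is shown here because these heavy chains were alike in interferon-high cells and H2-Q4 stood apart in Erfe-high cells. Capitals mark, in order, the kappaB core GGGATTNCC of enhancer A, a site of NF-kappaB, the class I interferon-stimulated response element GTTTCACTT, a site of IRF factors, and the Y box ATTGG, a site of NF-Y. In the B2m promoter the capitals mark the general response element core GAAANNGAA and the Y box.
H2-K1: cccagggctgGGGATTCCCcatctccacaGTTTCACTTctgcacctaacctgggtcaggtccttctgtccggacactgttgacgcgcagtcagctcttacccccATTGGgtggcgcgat
H2-Q4: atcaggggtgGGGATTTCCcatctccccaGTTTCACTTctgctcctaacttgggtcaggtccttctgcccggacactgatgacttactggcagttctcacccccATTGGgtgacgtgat
H2-D1: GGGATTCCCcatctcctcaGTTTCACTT
B2m: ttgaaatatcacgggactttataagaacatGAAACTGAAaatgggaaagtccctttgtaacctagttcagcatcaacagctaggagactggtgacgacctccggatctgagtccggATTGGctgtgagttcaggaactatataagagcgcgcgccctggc

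The stretches lie at chr17:34000349-34000467 on the minus strand for H2-K1 and at chr17:35379434-35379552 on the plus strand for H2-Q4. That of B2m lies at chr2:122147518-122147677 on the plus strand, and all 3 end before the RefSeq start of their gene. The H2-D1 run, chr17:35262924-35262951 on the plus strand, was kept to 28 bases, since GENCODE M21 places it in the first exon of H2-D1. Over 119 aligned bases, H2-K1 and H2-Q4 were identical at 84.9%, H2-K1 and H2-D1 at 89.9% and H2-D1 and H2-Q4 at 85.7%. The promoter table held 8 of the 10 members, H2-K1, H2-D1, H2-Q4, H2-T23, B2m, Tap1, Psmb8 and Psmb9. On both strands of all 27025 promoters of this length, the kappaB core was found in 266 (0.984%) and the class I response element in 109 (0.403%), in each case with H2-K1, H2-D1 and H2-Q4 as the members among them. The core GAAANNGAA was found in 2317 promoters (8.57%), those of H2-T23 and B2m included, and the Y box in 10248 (37.9%), with 7 of the 8 members. The X2 box, TGANGACG, was found in 529 promoters (2.0%) with H2-D1 among them. The GAS motif, TTCNNNGAA, was found in 2288 (8.47%) with Psmb8 as the member among them. The searched windows of H2-D1, Psmb8 and Psmb9 lie within their genes as placed by GENCODE M21. Matches did not overlap within a promoter. The Tap1 and Psmb9 windows shared 275 bases, since both genes start from the same short region of chromosome 17 in opposite directions, and their Y box is the same site, counted for both. A match is a description of these letters and not a bound site.

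In the remaining cells, H2-K1 and H2-D1, the classical heavy chains, had 111 and 211 CPM in the GFP+ library, against 91.2 and 174 in the GFP- library. B2m, the light chain that every class I molecule needs, had 264 in the GFP+ and 284 in the GFP- library. Both libraries therefore held class I transcripts in cells that were chosen for few UMIs of the myeloid markers. H2-T23, the non-classical heavy chain Qa-1 read by natural killer cell receptors, had 28.8 in the GFP+ and 26.0 in the GFP- library. For Tap1 the levels were 20.2 and 14.5 CPM in the GFP+ and the GFP- library, and for Tap2, the other subunit of the transporter, 54.9 and 43.9. The immunoproteasome subunit Psmb8 stood at 50.7 in GFP+ and 42.4 in GFP- cells, and Psmb9 at 26.4 and 25.2. Nlrc5, the coactivator of class I genes, was counted 4 times in all the remaining GFP+ cells and 15 times in the GFP- ones (0.581 and 0.50 CPM).

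The ratio of GFP+ over GFP- remaining cells lay between 0.928 (0.882 to 0.977) for B2m and 1.39 (1.14 to 1.69) for Tap1, and 0 of the 8 tested members were called, against 3.1% of 7742 genes called higher and 2.58% called lower. The median log2 ratio of the members was 0.27, beside -0.09 for all tested genes. H2-Q4, a non-classical heavy chain of the Q region, was the member that differed most: 22.2 CPM in the GFP+ cells and 5.00 in the GFP- cells, a ratio of 4.45 (3.53 to 5.61). Its pooled level was under the limit of 10 CPM, so it counts as not tested there, and it was called once that limit was 1. After thinning each cell to 3000 UMIs, 9.5% of 326 GFP+ cells and 2.2% of 1808 GFP- cells kept an H2-Q4 UMI. H2-Q4 was thus higher in the GFP+ cells by its summed level and by the share of cells holding it.

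Over all kept cells the picture differed. Here 7 of the 9 tested members were called higher in the GFP+ library, against 5.42% of 7958 genes called higher and 3.49% called lower: H2-K1 (ratio 2.26), H2-D1 (2.21), H2-Q4 (5.14), H2-T23 (1.94), B2m (1.61), Psmb8 (1.60) and Psmb9 (1.53). Tap1 (1.44) and Tap2 (1.22) were not called, and Nlrc5, with 29 GFP+ and 47 GFP- UMIs, was not tested. The share of Lyz2-positive cells differed as well. They were 11.8% of the GFP+ cells and held 62.0% of the H2-K1 and 57.5% of the B2m UMIs of that library. In the GFP- library they were 1.90% of the cells, with 17.0% of H2-K1 and 12.4% of B2m UMIs. Other-lineage cells held 4.97% of H2-K1 and 4.77% of B2m UMIs in the GFP+ library, and 13.3% and 12.2% in the GFP- library. The alternative that follows left out both groups together, so the part of each was not tested. Without Lyz2-positive and other-lineage cells, 1 member was called, H2-Q4 at a ratio of 6.07, and the ratios of H2-K1 and H2-D1 were 1.17 and 1.22. B2m (0.876) and Psmb9 (0.961) then lay on the other side of 1.

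**Figure D1:**
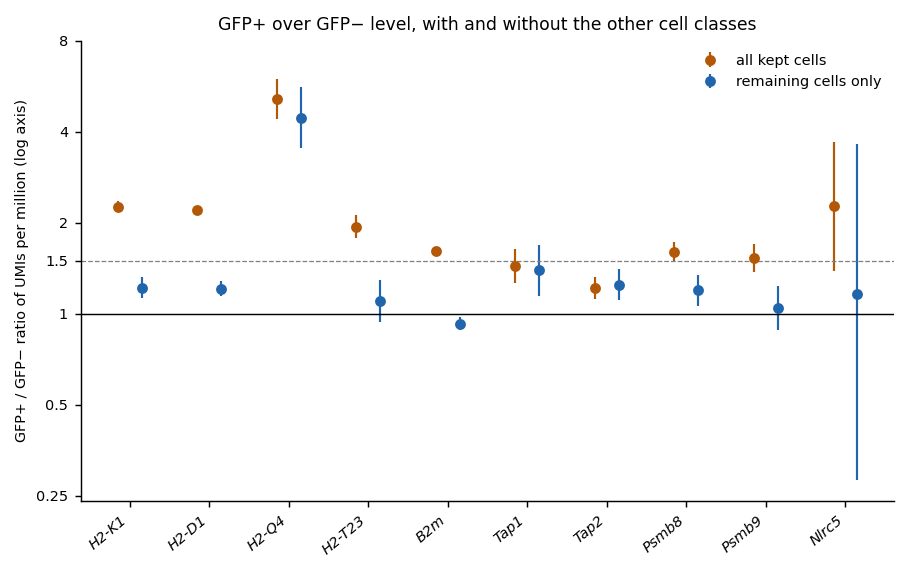
Ratio of the GFP+ over the GFP- level of each gene (log axis) over all kept cells (orange) and over the remaining cells (blue), with exact 95% counting intervals. The dashed line is the ratio of 1.5. Over all cells 7 genes are called higher, and in the remaining cells H2-Q4 lies at 4.45 while the other genes lie between 0.928 and 1.39.

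H2-Q4 was higher in the GFP+ library in each of the other classes as well. Its level was 44.6 CPM in GFP+ and 13.5 in GFP- interferon-high cells, a ratio of 3.31 (1.87 to 5.86). In Erfe-high cells it was 205 in GFP+ and 47.6 in GFP- cells, a ratio of 4.32 (2.48 to 8.12). The ratio in Lyz2-positive cells was 2.02 (1.11 to 3.93), and that in Myog-positive cells 3.13 (1.71 to 5.68) at 8.53 and 2.72 CPM, too low to count as tested. Genes called higher in GFP+ cells of these classes made up 4.36%, 6.21%, 5.21% and 3.26% of those tested in interferon-high, Erfe-high, Lyz2-positive and Myog-positive cells, and 6.91%, 8.83%, 13.8% and 8.21% were called lower. Apart from H2-Q4, a member was called between the fractions in interferon-high cells for H2-T23 (1.5, 1.15 to 1.95), in Erfe-high cells for H2-D1 (1.95, 1.5 to 2.55) and in Myog-positive cells, where B2m (0.663), Psmb8 (0.665) and Psmb9 (0.480) were called lower in GFP+ cells.

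Reads that match several genes limit what the levels of class I genes can tell. Of the windows of 90 bases in the last 500 bases of the annotated coding transcripts (GENCODE M21), 9.49% for H2-Q4, 13.4% for H2-T23, 0.151% for H2-K1 and 0% for H2-D1 and the other members also occurred in transcripts of another gene. The genes sharing most windows with H2-Q4 were Gm43321, Olfr1238, Olfr552 and Gm8956. With H2-T23 they were Rab33b, Hook2 and H2-T-ps, and with H2-K1 they were H2-D1, H2-Q1, H2-Q6 and H2-Q7. The strain is not given, and alleles that differ from the reference genome could shift reads between class I genes, which was not tested. H2-Q7, another gene of the Q region, had 2 UMIs in the Erfe-high cells of each library, at ratios over the remaining cells of 0.707 (0.0821 to 2.77) in GFP+ and 1.84 (0.220 to 6.80) in GFP- cells, too few to set beside H2-Q4.

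**Figure D2:**
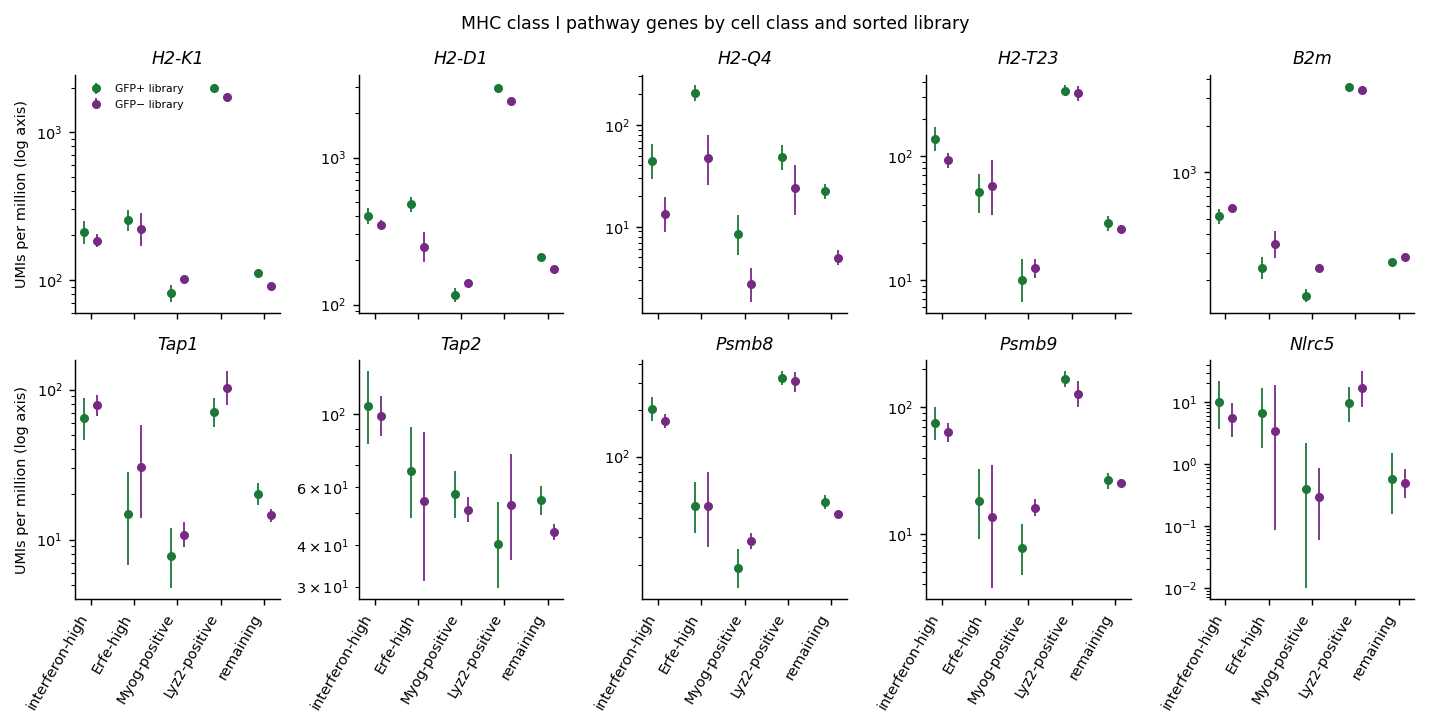
CPM (log axis) of each gene in the 5 cell classes, with GFP+ (green) left of GFP- (purple) and exact 95% Poisson intervals. Most genes are highest in Lyz2-positive cells, Tap2 in interferon-high cells and H2-Q4 in Erfe-high cells.

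Interferon-high cells had more of every tested member than the remaining cells of their library. All 9 tested members were called higher in the GFP+ library, against 3.84% of 7700 genes called higher and 4.95% called lower, and all 8 in the GFP- library, against 2.21% and 2.05% of 7772. The median log2 ratio of the members was 1.0 in GFP+ and 1.26 in GFP- cells, beside -0.06 and -0.03 for all tested genes. The 25 GFP+ interferon-high cells were few, and 10 of them held 85.0% of their H2-K1 and 92.9% of their H2-T23 UMIs.

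Among the heavy chains, H2-T23 differed most, at 139 CPM in interferon-high against 28.8 in remaining GFP+ cells (ratio 4.82, 3.69 to 6.25) and at 92.4 against 26.0 in GFP- cells (3.55, 3.01 to 4.17). H2-K1 had ratios of 1.89 (1.55 to 2.28) in the GFP+ and 2.02 (1.81 to 2.25) in the GFP- library. Those of H2-D1 were 1.90 and 2.0, and those of its partner B2m 1.97 and 2.06. The classical heavy chains and their light chain thus stood close to 2-fold over the remaining cells in both libraries. H2-Q4 reached a ratio of 2.01 (1.28 to 3.03) in GFP+ cells, and in GFP- cells 2.70 (1.72 to 4.08) on 27 UMIs, where it was not tested.

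The genes that supply peptides had ratios between 1.92 and 5.44. Psmb8, which replaces the catalytic subunit Psmb5 in the immunoproteasome, had 205 CPM in interferon-high against 50.7 in remaining GFP+ cells and 171 against 42.4 in GFP- cells, a ratio of 4.04 in each library (3.26 to 4.97 and 3.57 to 4.55). Psmb9, which replaces Psmb6, had ratios of 2.87 in GFP+ and 2.53 in GFP- cells. Tap1 had 64.4 against 20.2 in GFP+ cells (3.19, 2.18 to 4.58) and 78.9 against 14.5 in GFP- cells (5.44, 4.51 to 6.55). Tap2 had 1.92 in GFP+ and 2.25 in GFP- cells. Nlrc5 was counted 6 times in interferon-high against 4 times in remaining GFP+ cells, and 11 against 15 times in GFP- cells, at ratios of 17.0 (4.04 to 82.1) and 11 (4.57 to 25.6) that were too low in counts to be tested.

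The levels followed the score in the GFP- library, where every bin of the score held at least 49 cells. Psmb8 stood at 32.2, 59.1, 89.9, 116 and 269 CPM in cells with scores under 2, 2 to 5, 5 to 10, 10 to 20 and 20 or more per 10000 UMIs. Over the same bins Tap1 stood at 11, 21.6, 32.3, 60.1 and 112, and B2m at 247, 366, 433, 551 and 650. Each of the 8 genes drawn against the score was higher in every bin than in the one below it. In the GFP+ library the upper bins held 15 and 10 cells, and Psmb8 went 30.3, 59.7, 144, 113 and 358, so the order was broken between the middle bins.

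**Figure D3:**
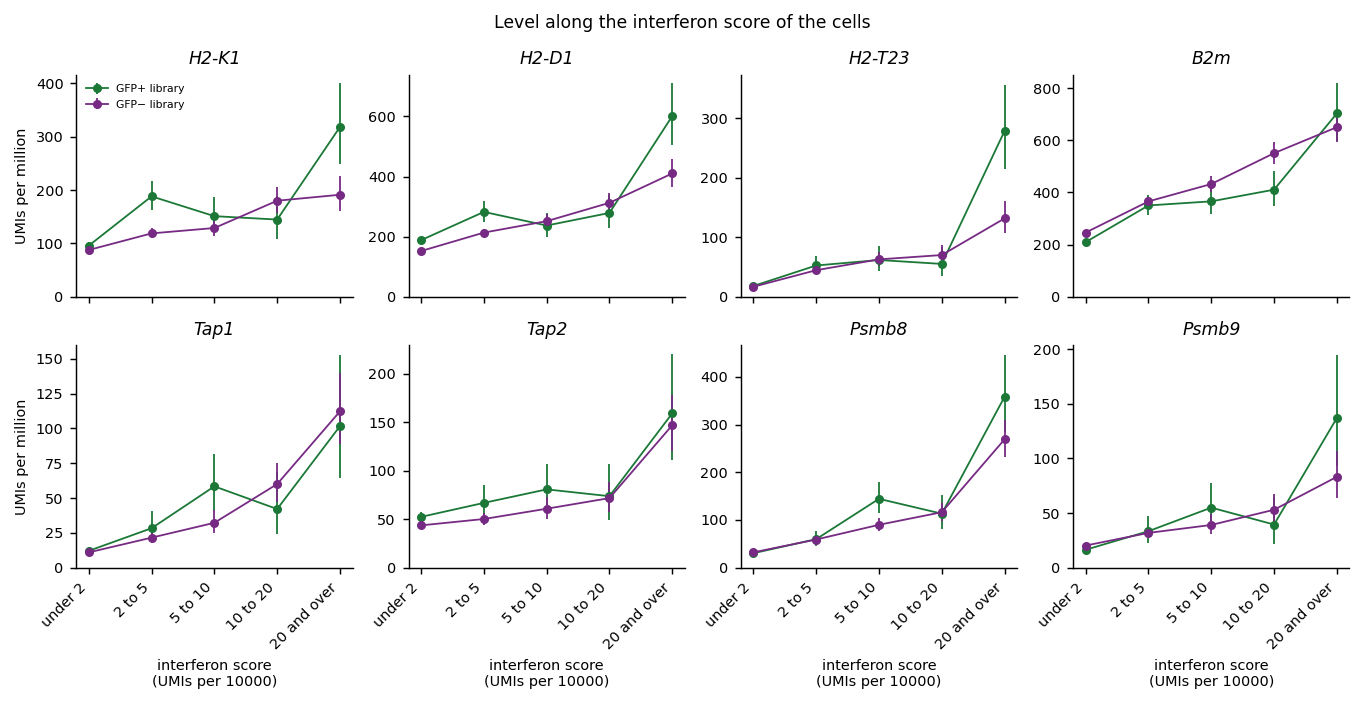
CPM of 8 genes in cells binned by their interferon score (UMIs of 18 interferon-stimulated genes per 10000), for GFP+ (green) and GFP- (purple) cells, with exact 95% Poisson intervals. The GFP- lines climb over all 5 bins, as for Psmb8 at 32.2 to 269. The last GFP+ bins hold 15 and 10 cells.

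Other genes of the pathway were read from fixed lists. Of the 10 genes of peptide loading and trimming, 4 of 10 tested were called higher in GFP+ interferon-high cells and 4 of 9 in GFP- ones. Psmb10, the remaining inducible catalytic subunit, had 144 CPM against 38.6 in remaining GFP+ cells and 136 against 48.1 in GFP- cells. Tapbp, which holds class I molecules at the transporter, had ratios of 2.04 and 1.58 in the GFP+ and GFP- libraries, and Psme1, a proteasome activator subunit, 1.82 and 1.52. The interferon-inducible GTPases, 11 genes not used to define a class, had 5 of 5 tested called higher in each library. Of 24 regulators, 3 of 20 tested were called higher in GFP+ and 4 of 19 in GFP- cells, and 0 lower in either. Stat2 was 3.58-fold higher in GFP+ and 3.86-fold higher in GFP- cells, and Irf9 was 2.35-fold and 3.04-fold higher. Of 14 constitutive proteasome genes, 0 were called in either library, and H2-T22, another non-classical heavy chain, was 4.05-fold and 3.67-fold higher, though 26.4% of its windows occur in other genes.

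The interferon-high cells also held committed myocytes. Of them, 3 GFP+ and 13 GFP- cells were Myog-positive. The 10 differentiation genes summed to 4402 CPM in interferon-high against 99.3 in remaining GFP+ cells, and to 1317 against 141 in GFP- cells. These sums include Myog, and remaining cells hold under 3 Myog UMIs by definition. The median of the list per cell was 0.847 per 10000 UMIs in interferon-high against 0.261 in remaining GFP+ cells. In GFP- cells it was 0.792 against 0.626. In interferon-high cells of no other class, H2-K1 had a ratio of 1.56 and Psmb8 of 3.97 in the GFP+ library. The myeloid list stood at 6.60 CPM in interferon-high against 17.3 in remaining GFP+ cells, and at 11.5 against 9.96 in GFP- cells.

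In Erfe-high cells the members called were heavy chains. Pax7, the satellite cell factor, had 473 CPM in Erfe-high against 254 in remaining GFP+ cells and 347 against 184 in GFP- cells. In the GFP+ library 4 of 9 tested members were called higher, against 12.4% of 7705 genes, and 0 lower, against 18.2%. In the GFP- library, with 35 such cells, 2 of 7 were called higher, against 9.39% of 6154 genes, and 0 lower, against 9.73%. The called members were H2-K1, H2-D1, H2-Q4 and H2-T23 in GFP+ and H2-K1 and H2-T23 in GFP- cells. The GFP- call of H2-T23 was lost at an Erfe limit of 1 (1.28), and H2-T23 was not called at a limit of 3 (3.16) or in cells of at least 3000 UMIs and at most 5% mitochondrial UMIs (3.01).

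H2-Q4 was the member with the highest ratio. It had 205 CPM in Erfe-high against 22.2 in remaining GFP+ cells, a ratio of 9.24 (7.24 to 11.8). In GFP- cells it had 47.6 against 5.00, a ratio of 9.52 (5.08 to 16.5) on 14 UMIs, where it was not tested. The 73 GFP+ Erfe-high cells that were not interferon-high, 12.1% of the GFP+ cells, held 29.4% of all H2-Q4 UMIs of that library. An H2-Q4 UMI was found in 43 of the 75 GFP+ and in 7 of the 35 GFP- Erfe-high cells. After thinning to 3000 UMIs it was found in 40.5% of Erfe-high against 9.5% of remaining GFP+ cells, and in 12.1% against 2.2% of GFP- cells.

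H2-K1 had 253 CPM in Erfe-high against 111 in remaining GFP+ cells (2.28, 1.90 to 2.71) and 221 against 91.2 in GFP- cells (2.42, 1.87 to 3.10). H2-D1 had 483 against 211 in GFP+ cells (2.29, 2.02 to 2.60), while in GFP- cells its ratio was 1.43 (1.12 to 1.80) and not called. H2-K1 was thus called higher in both libraries, although 10 of the 35 GFP- cells held 83.1% of its UMIs there. H2-T23 had ratios of 1.77 (1.17 to 2.60) in GFP+ and 2.22 (1.29 to 3.58) in GFP- cells, but 10 of the 75 GFP+ cells held 90.3% of its UMIs and 8 of the 35 GFP- cells held all of them. The GFP+ value was 1.01 in Erfe-high cells of no other class and 0.768 in cells with at least 3 Erfe UMIs, so this call rested on a few cells.

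The light chain and the peptide supply genes were not called in these cells. B2m had 241 CPM in Erfe-high against 264 in remaining GFP+ cells (0.916, 0.769 to 1.08) and 343 against 284 in GFP- cells (1.21, 0.983 to 1.47). Psmb8 had ratios of 0.940 (0.620 to 1.37) in GFP+ and 1.12 (0.612 to 1.89) in GFP- cells, and Tap2 1.23 and 1.24. Tap1, counted 9 times in Erfe-high cells of each library, had ratios of 0.732 (0.328 to 1.43) in GFP+ and 2.11 (0.959 to 4.05) in GFP- cells, where it was not tested. Psmb9 had 11 UMIs in GFP+ and 4 in GFP- Erfe-high cells, at ratios of 0.684 (0.335 to 1.3) and 0.539 (0.147 to 1.39). Each of these intervals includes 1. In GFP+ Erfe-high cells of no other class, 2 members were called lower, Psmb8 at 0.501 among them. The 73 GFP+ Erfe-high cells that were not interferon-high held 115 of the 147 B2m UMIs of the class. They held 14 of the 29 Psmb8 and 5 of the 11 Psmb9 UMIs. The other UMIs of these genes were in the 2 cells that were also interferon-high. The median B2m level per cell was 1.37 per 10000 UMIs in Erfe-high against 2.20 in remaining GFP+ cells. In GFP- cells it was 2.48 against 2.45. With libraries scaled to the median gene, B2m (1.03) and Psmb8 (1.06) lay on the other side of 1 in GFP+ cells.

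Erfe-high cells differed in depth and in other lists too. Their median was 6843 UMIs in GFP+ and 8104 in GFP- cells, against 19430 and 14377.5 in the remaining cells. Of 14 constitutive proteasome genes, 9 in GFP+ and 5 in GFP- cells were called lower. Of 24 regulators, 6 of 20 tested were called higher in GFP+ and 4 of 17 in GFP- cells, among them Rela, a subunit of NF-kappaB, with ratios of 2.16 and 2.55, and Socs3, an inhibitor of cytokine signalling, with 2.29 and 2.02. The interferon score genes summed to 251 CPM in Erfe-high against 132 in remaining GFP+ cells and to 241 against 120 in GFP- cells. These sums include 2 Erfe-high cells of each library that were also interferon-high, while remaining cells score under 10 by definition. The median score per cell was 0 in Erfe-high cells of both libraries, against 0.388 in remaining GFP+ and 0.502 in remaining GFP- cells. The fibroadipogenic list summed to 230 against 30.8 in GFP+ and 102 against 16.9 in GFP- cells, of which Dpt alone gave 228 and 102, while Pdgfra, the defining marker of that lineage, was at 0 in the Erfe-high cells of both libraries. The myeloid list stood at 32.9 against 17.3 in GFP+ and at 6.80 against 9.96 in GFP- cells. The part of these differences in the heavy chain levels was not tested.

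**Figure D4:**
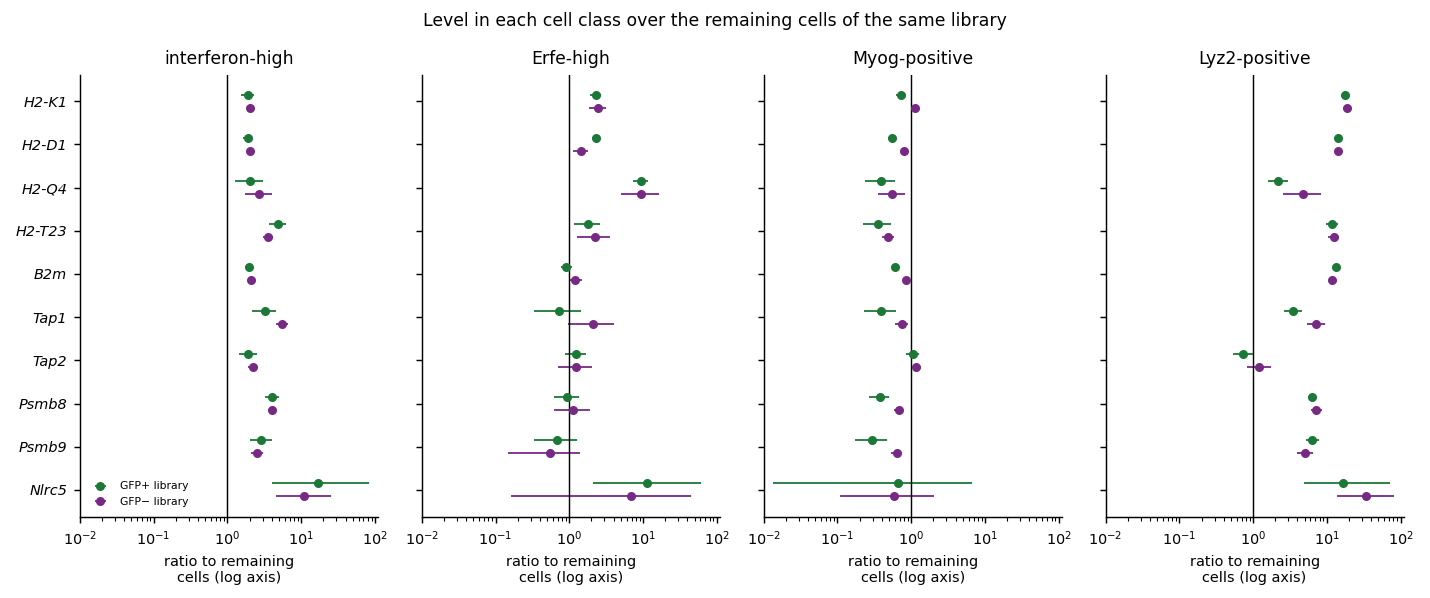
Ratio of the level in each cell class over the remaining cells of the same library (log axis), with GFP+ (green) above GFP- (purple) and exact 95% counting intervals. In interferon-high cells all genes lie right of 1. In Erfe-high cells H2-Q4 lies at 9.24 and 9.52, and B2m and Psmb8 lie near 1. In Myog-positive cells most genes lie left of 1, and in Lyz2-positive cells Tap2 alone lies near 1.

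In Myog-positive cells, which are leaving the cell cycle to fuse, most members were called lower in the GFP+ library and few in the GFP- library. In the GFP+ library 7 of 9 tested members were called lower, against 21.8% of 7624 genes, and in the GFP- library 2 of 8, against 15.3% of 7758. None was called higher, against 12.4% of genes in GFP+ and 7.81% in GFP- cells. The median log2 ratio of the members was -1.38 in GFP+ and -0.37 in GFP- cells, beside -0.08 and -0.07 for all tested genes. H2-T23 and Psmb9 were called in both libraries.

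H2-T23 had 10.1 CPM in Myog-positive against 28.8 in remaining GFP+ cells (0.351, 0.223 to 0.529) and 12.5 against 26.0 in GFP- cells (0.482, 0.397 to 0.581). Psmb9 had 7.75 against 26.4 in GFP+ cells (0.293, 0.175 to 0.467) and 16.1 against 25.2 in GFP- cells (0.640, 0.538 to 0.758). These 2 members were thus called lower in both libraries. In GFP- cells they were the 2 called of 8 tested, beside 15.3% of all tested genes. The GFP- call of Psmb9 was lost at a fold of 2 and with libraries scaled to the median gene. H2-D1 (0.552), H2-Q4 (0.384), B2m (0.603), Tap1 (0.384) and Psmb8 (0.375) were called in GFP+ cells, and in GFP- cells their ratios were 0.809, 0.545, 0.844, 0.745 and 0.674, none called and H2-Q4 not tested. H2-K1 went apart: 81.0 against 111 in GFP+ cells (0.729, 0.623 to 0.851) and 102 against 91.2 in GFP- cells (1.12, 1.04 to 1.2). Tap2 had ratios of 1.05 in GFP+ and 1.17 in GFP- cells.

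Along Myog, the lower levels appeared where Myog was high. In GFP- cells H2-T23 had 31.2, 23.4, 20.5, 13.6 and 9.86 CPM at 0, 1 to 2, 3 to 9, 10 to 29 and 30 or more Myog UMIs, and Psmb8 had 49.9, 48.0, 41.0, 38.3 and 22.3. H2-K1 had 98.1, 87.4, 105, 70.7 and 109 over the same bins, with no such order. In GFP+ cells Psmb8 had 58.1, 68.9, 44.6, 19.0 and 12.5, where the bins of 3 to 9 and 10 to 29 held 13 and 18 cells. The median depth was 26991.5 UMIs in GFP+ and 18386.5 in GFP- cells of the highest bin, against 17503 and 14007 in cells without Myog.

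The constitutive proteasome did not share this direction, with 14 of 14 genes above 1 in both libraries, 6 of them called higher in GFP+ and 0 in GFP- Myog-positive cells. Psmb5, the constitutive partner of Psmb8, had 374 CPM in Myog-positive against 226 in remaining GFP+ cells and 376 against 276 in GFP- cells. Regulators were called lower for 13 of 20 tested in GFP+ and 11 of 19 in GFP- cells. Tapbp had ratios of 0.430 in GFP+ and 0.687 in GFP- cells, called in the GFP+ library. Cd47, a surface signal against uptake by macrophages, had 0.362 and 0.502. Fcgrt, a class I-like receptor of immunoglobulin G that pairs with B2m, was called lower in both, at 0.218 and 0.336.

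The share of each inducible catalytic subunit in the sum with its constitutive partner put the classes in 1 order for Psmb8. Psmb8 made up 64.4% (60.3 to 68.3) of the pair in GFP+ and 59.9% (54.1 to 65.5) in GFP- Lyz2-positive cells, and 42.8% (37.0 to 48.7) and 38.8% (35.6 to 42.1) in interferon-high cells. In Erfe-high cells it was 29.6% (20.8 to 39.7) in the GFP+ and 20.3% (11.6 to 31.7) in the GFP- library, in remaining cells 18.3% (16.6 to 20.2) and 13.3% (12.7 to 14.0), and in Myog-positive cells 4.84% (3.60 to 6.34) and 7.06% (6.30 to 7.88). The Erfe-high interval overlaps that of the remaining cells in the GFP- library and lies above it in the GFP+ library. There Psmb5 had 113 CPM in Erfe-high against 226 in remaining cells. Only 14 of the 29 Psmb8 UMIs of GFP+ Erfe-high cells lay in the 73 cells that were not interferon-high. The other Psmb8 UMIs were in the 2 cells that were also interferon-high, and the share without these cells was not computed. The share of Psmb9 was 20.7% and 16.4% in GFP+ and GFP- interferon-high cells and 1.92% and 3.97% in Myog-positive cells, beside 9.18% and 7.31% in remaining cells. Psmb10, which is no member, had 47.0% and 43.0% in interferon-high, 15.3% and 15% in Myog-positive and 22.4% and 22.3% in remaining cells.

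**Figure D5:**
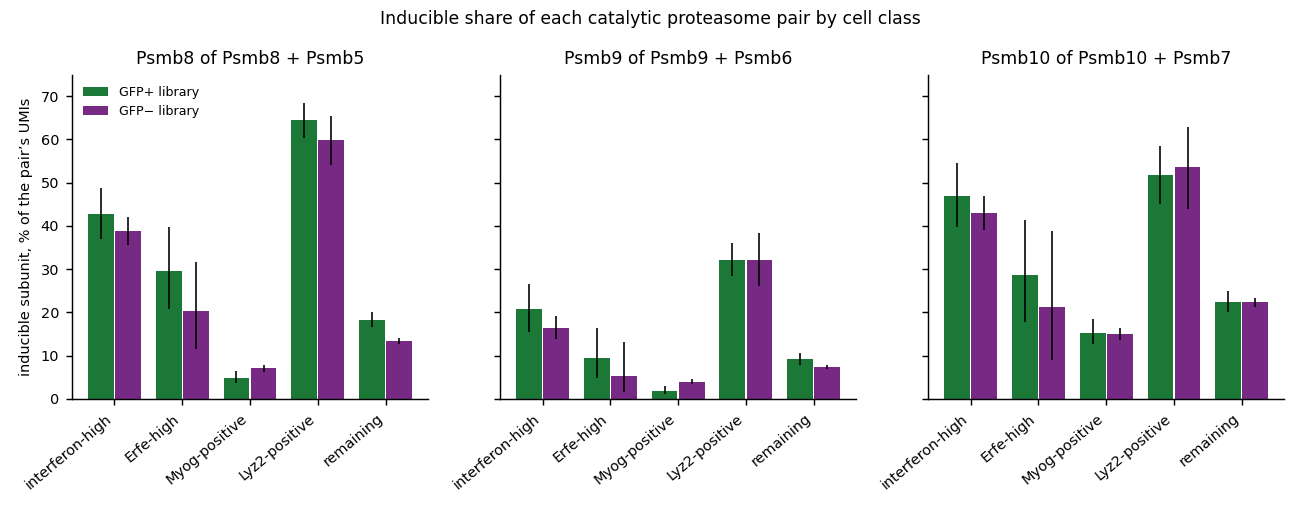
Share of the inducible subunit in the summed UMIs of each catalytic pair (percent) by cell class, with GFP+ (green) left of GFP- (purple) and exact 95% binomial intervals. Psmb8 lies between 4.84% in GFP+ Myog-positive and 64.4% in GFP+ Lyz2-positive cells.

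Lyz2-positive cells expressed the myeloid list, which includes Lyz2 itself, and, unevenly, the class II genes. The class II genes had a median of 206 per 10000 UMIs in GFP+ and 20.7 in GFP- Lyz2-positive cells, with a minimum of 0 in both. Lyz2-positive cells had the highest levels of most members among the 5 classes compared. In the 5 GFP+ and 5 GFP- cells with myeloid markers but fewer Lyz2 UMIs, which are in none of these classes, Psmb8 stood at 1024 and 497 CPM and H2-K1 at 1417 and 1804. In GFP+ cells 8 of 9 tested members were called higher, against 19.2% of 7930 genes, and in GFP- cells 7 of 8, against 14.4% of 7817. None was called lower, against 44.2% of genes in GFP+ and 31.3% in GFP- cells. The median log2 ratio of the members was 2.67 in GFP+ and 3.21 in GFP- cells, beside -0.52 and -0.41 for all tested genes. H2-K1 had 1987 CPM in Lyz2-positive against 111 in remaining GFP+ cells (17.9-fold) and 1737 against 91.2 in GFP- cells (19.1-fold). B2m had 3521 against 264 in GFP+ cells (13.4-fold) and 3382 against 284 in GFP- cells (11.9-fold). In GFP+ and GFP- cells the ratios were 14.2 and 14.0 for H2-D1 and 11.7 and 12.3 for H2-T23. Those of Psmb8 were 6.37 and 7.24, of Psmb9 6.36 and 5.10, and of Tap1 3.49 and 7.10. The interferon score genes stood at 1265 CPM in Lyz2-positive against 132 in remaining GFP+ cells and at 1377 against 120 in GFP- cells. Remaining cells score under 10 per 10000 by definition, while Lyz2-positive cells were taken at any score. The median score per cell was 7.96 in Lyz2-positive against 0.388 in remaining GFP+ cells and 6.28 against 0.502 in GFP- cells.

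Tap2 was the exception, with 40.5 CPM in Lyz2-positive against 54.9 in remaining GFP+ cells (0.738, 0.531 to 1.0) and 53.2 against 43.9 in GFP- cells (1.21, 0.819 to 1.73). Its GFP+ ratio was 1.06 with libraries scaled to the median gene and 0.610, then called lower, with mitochondrial and ribosomal protein UMIs left out of the total. In GFP- cells these scalings gave 1.61, then called higher, and 1.03. H2-Q4, at 48.4 against 22.2 in GFP+ cells, had a ratio of 2.18 (1.57 to 2.98), and at 24 against 5.00 in GFP- cells one of 4.81 (2.57 to 8.32), where it was not tested. Nlrc5 was counted 11 and 10 times in the GFP+ and GFP- Lyz2-positive cells (9.68 and 17.1 CPM).

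Free RNA was read from barcodes with at most 100 UMIs. In these B2m stood at 661 CPM in the GFP+ and 396 in the GFP- library, and H2-K1 at 483 and 177. Cd74, the invariant chain that accompanies class II molecules, was counted mostly in Lyz2-positive cells. In the remaining cells it was at 0.298% of its level in such barcodes in GFP+ and 1.67% in GFP- cells. At that carry-over, 1.30% of the H2-K1 and 0.384% of the H2-Q4 UMIs of the remaining GFP+ cells, and 3.25% and 1.79% of those of GFP- cells, would be free RNA.

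Across the 5 classes in both libraries (10 sums from 2 libraries, which share cells' depth and the class definitions), the genes most like the members were Lgals9 (Pearson r = 0.97 with their mean standardised log2 level), Tapbp (0.96), Grina (0.96), Zc3hav1 (0.96), Tcirg1 (0.95), Nampt (0.95), Psme1 (0.95) and Sptlc2 (0.94), of 5772 genes compared. Among the members, H2-T23 (0.99) and Psmb8 (0.97) followed that mean most closely, while H2-Q4 (0.55) and Tap2 (0.22) followed it least. For H2-Q4, the order of the classes in GFP+ cells was Erfe-high, Lyz2-positive, interferon-high, remaining and Myog-positive, where the Lyz2-positive and interferon-high levels of 48.4 and 44.6 CPM did not differ beyond their intervals.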

How the data were processed

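The authors deposited the raw UMI count of each gene in each barcode of 2 libraries, written by Cell Ranger 4 per the file headers; Cell Ranger, Seurat and the mm10 build are named in the submitters' processing notes, with no further settings given in the sources used here. Both tables hold all barcodes (718416 GFP+ and 1361552 GFP-, 13928952 and 49709323 UMIs). Cells were filtered as stated in the results (kept UMIs 11981352 and 44264206). Doublets were not removed before the sums; 0 GFP+ and 1 GFP- Lyz2-positive cells had at least 3 Myog UMIs. Interferon-high, Erfe-high and Myog-positive cells may overlap.

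Counts were summed per class and divided by the total of the same cells. Ratios have exact conditional (Clopper-Pearson) 95% intervals, levels exact Poisson and shares exact binomial ones, all for counting error only. For 1 library per fraction no p-value was computed. A count of 0 allows up to 3 UMIs. The members and lists were chosen with earlier results of these data known; lists lacked 5 symbols, which were not analysed here. Named list genes are up to 4 per list with the largest ratio in a comparison, and genes most like the members the 8 of highest correlation at a mean level of at least 20 CPM; H2-Q7, Psmb10, Psmb5, Pax7 and Dpt were named after their values were seen. Ratios were tested on counts simulated with Poisson error only, which does not cover the uneven spread of UMIs over cells. Work was done in Python 3.11.15 with scipy 1.17.1, numpy 2.4.6, Biopython 1.88 and pandas 2.3.3. Alternatives changed the scaling, cell filter, class limits, fold and level limit. Without strand settings in the sources used here, reads of overlapping genes cannot be told apart.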

Additional observations from a re-analysis of the deposited data

Results flagged for a closer look

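Each result here compares 2 ratios whose 95% counting intervals lie on opposite sides of 1. With 1 library per fraction, the difference between them was not tested. H2-K1 in Myog-positive over remaining cells had a ratio of 0.729 in the GFP+ library and 1.12 in the GFP- library. For GFP+ over GFP- cells, H2-K1 was at 1.22 in remaining and 0.795 in Myog-positive cells, H2-D1 at 1.21 and 0.826, and Psmb8 at 1.2 and 0.665. Tap1 was at 1.39 in remaining and 0.684 in Lyz2-positive cells. H2-D1 was at 1.95 in Erfe-high and 0.826 in Myog-positive cells. In Myog-positive against Lyz2-positive cells, H2-K1 was at 0.795 and 1.14 and H2-D1 at 0.826 and 1.23.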

How the results depend on the processing

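Of the counts of called members, 195 values under an alternative were within 1.5 times the value reported and 19 were not. A count of 0 that stayed 0 was taken as within, and many of the reported counts were 0. Over all cells, the 7 members called higher in GFP+ were 4 in cells of at least 3000 UMIs and at most 5% mitochondrial UMIs, 3 at a fold of 2, and 1 without Lyz2-positive and other-lineage cells. In remaining cells the 0 called higher was 1 with scaling without mitochondrial and ribosomal protein UMIs, with a level limit of 1 or with none (H2-Q4), and 1 with the mean of per-cell levels (Tap1). The 9 members higher in GFP+ interferon-high cells were 5 at a fold of 2. The 0 lower in GFP+ Erfe-high cells was 1 with per-cell means or an Erfe limit of 3 and 2 in cells of exactly 1 class, and that in GFP- was 1 with per-cell means. The 2 higher in GFP- Erfe-high cells stayed 2 at an Erfe limit of 1 or 3 and in cells of at least 3000 UMIs and at most 5% mitochondrial UMIs, but shared 1 member, H2-K1, with those reported. The 7 lower in GFP+ Myog-positive cells were 4 at a Myog limit of 1. The 2 in GFP- were 1 with median-ratio scaling, at a fold of 2 or at a Myog limit of 1, and 4 in cells of exactly 1 class. The 0 lower in GFP+ Lyz2-positive cells was 1 without mitochondrial and ribosomal protein UMIs or at a Lyz2 limit of 30. The direction turned for H2-T23 in GFP+ Erfe-high cells at an Erfe limit of 3 (0.768), and for B2m (0.876) and Psmb9 (0.961) over all cells without Lyz2-positive and other-lineage cells. Other causes of these moves were not tested. No paired analysis was possible because each fraction is 1 library. Nlrc5 and, in GFP- cells, H2-Q4 are limited by their low level.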
